A study of Mus musculus with 15 samples.

Results

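The mouse genes whose RNA was higher in Rpl5 mutant than in wildtype erythroid progenitors described here are Tjp1, Homer2, Mef2c, Ano1, Gask1b, Nid1, Hecw1, Rbmx, Emilin2 and Tmsb4x. They are 10 of the 55487 mouse genes in the deposited tables, and all 10 passed the filter on low counts in both tables. They had been picked for a large or very even increase in the mutants among genes outside the classic p53 targets, with no numeric threshold, so the differences between mutants and wildtype below are a description of the choice and carry no test. The genes encode junction, scaffold, matrix, signalling, RNA-binding and actin-binding proteins.

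The study compared erythroid progenitors from the fetal liver at embryonic day 12.5, all of strain 129S6/SvEvTac, by RNA sequencing of 15 libraries in 5 groups of 3. Mouse group 1 comprised wildtype and Rpl5 mutant libraries made from polyA RNA. Mouse group 2 comprised wildtype, Rpl5 mutant and low-yield Rpl5 mutant libraries made from total RNA, and levels were therefore not compared between the mouse groups. A sheet deposited with the group 2 table names the allele of the mutants and of the low-yield mutants as Rpl5plusSkax23Jus and calls the controls wildtype, with no treatment listed for any group. What "low-yield" refers to, and whether the replicates came from separate embryos, the labels do not say, so p-values measure the spread between these libraries.

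The product of Rpl5 is part of the large subunit of the ribosome. Loss of one copy of such genes disturbs ribosome production and causes Diamond Blackfan anemia, in which the marrow makes too few red cells. It is also known to stabilise the transcription factor p53 in erythroid precursors. Junction and basement membrane proteins are best known from epithelia and blood vessels, and the actin skeleton they attach to is rebuilt as erythroid cells mature.

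Total counts were 48510828 to 58513669 per library in group 1 and 24954324 to 44827821 in group 2. Rpl5 itself was at 520 to 570 CPM (a library's counts relative to its TMM-adjusted total) in the mutants of group 1 against 656 to 744 in wildtype, and at 219 to 278 in the 6 mutant libraries of group 2 against 303 to 374, so no mutant library reached the wildtype range of its mouse group. All 11 erythroid markers had counts in every group, and their summed level was 2230 to 2440 CPM in the mutants against 3539 to 6045 in wildtype of group 1. In group 2 it was 4128 to 7131 CPM in wildtype, 3027 to 3429 in mutants and 2691 to 3852 in low-yield mutants. Of the 11, edgeR called 8 lower in group 1, 3 in the mutants and 5 in the low-yield mutants of group 2, and none higher. The shares of all genes called lower were 6.78%, 2.95% and 5.86%. In bulk RNA such as this, fewer cells of a type and less RNA per cell cannot be told apart. The 7 hepatoblast markers summed to 33.0 to 58.9 CPM in wildtype and 7.31 to 23.3 in mutants of group 1, where edgeR called 2 lower, and to 9.14 to 70.6, 10.3 to 49.0 and 42.7 to 48.3 in wildtype, mutants and low-yield mutants of group 2, where it called none. The part of these cells in the members' differences was not tested.

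**Figure D1:**
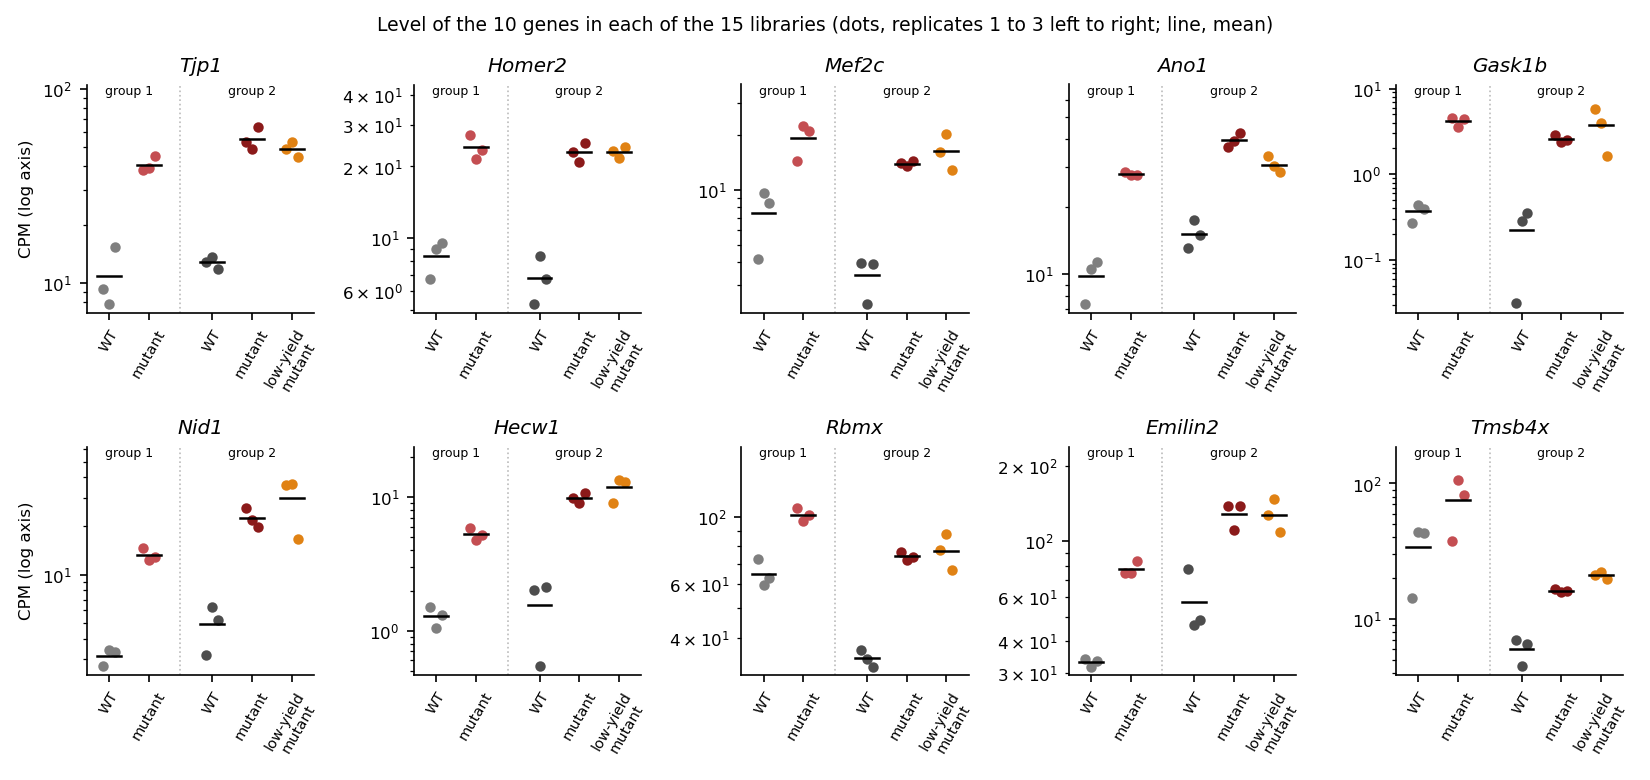
CPM (log axis) of each of the 10 genes in the 15 libraries, with wildtype and mutant of mouse group 1 left of the dotted line and wildtype, mutant and low-yield mutant of mouse group 2 right of it. Dots are libraries and lines are means; in group 2 every mutant dot lies above every wildtype dot for all 10 genes, and in group 1 for 9, Tmsb4x being the exception.

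In group 1, 9 of the 10 genes were called higher in the mutants by edgeR's quasi-likelihood test (Benjamini-Hochberg adjusted p under 0.05 over all genes tested), beside 5.79% of the 14048 genes tested (12.6% in either direction, 6.78% lower). In group 2 all 10 were called higher in the mutants, beside 3.32% of 15024 (6.27% in either direction, 2.95% lower). All 10 were called higher in the low-yield mutants, beside 6.68% (12.5% in either direction, 5.86% lower). The lowest mutant library stood above the highest wildtype library for 9 genes in group 1, beside 15% of genes tested, for 10 in group 2, beside 11.5%, and for 10 in the low-yield mutants, beside 15.3%. These comparisons chose the genes, so nothing is read from the counts. The median log2 fold change of the 10 was 1.51 in group 1, 1.88 in group 2 and 1.87 in the low-yield mutants, where the medians of all genes tested were 0.01, -0.01 and -0.00. Both comparisons in group 2 use the same 3 wildtype libraries.

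**Figure D2:**
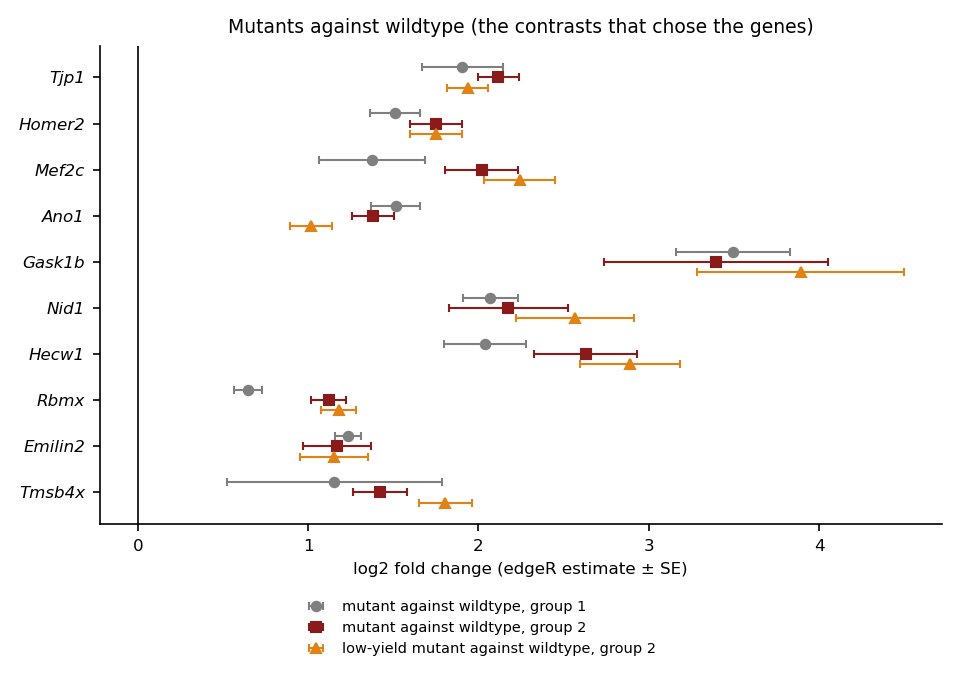
Log2 fold change with its SE (edgeR) of each gene in the mutants of group 1, the mutants of group 2 and the low-yield mutants of group 2, each against wildtype of its mouse group. Every estimate lies above 0, from 0.65 for Rbmx in group 1 to 3.89 for Gask1b in the low-yield mutants; the genes were chosen on these values.

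Of the junction and scaffold proteins, Tjp1 encodes ZO-1, which ties the membrane proteins of tight junctions to actin. Its gene lies at chr7:65296165-65527781 on the minus strand (GRCm38). Tjp1 was at 9.30, 7.80 and 15.3 CPM in wildtype replicates 1 to 3 of group 1 and at 38.4, 39.0 and 44.9 CPM in the mutants. In mouse group 2 the gene was at 12.8, 13.7 and 11.9 CPM in wildtype, 53.2, 49.0 and 63.3 in mutants and 48.9, 53.1 and 44.4 in low-yield mutants. All mutant libraries were high, and replicate 3 was the highest wildtype of group 1. Its log2 fold changes were 1.91 (SE 0.24), 2.12 (SE 0.12) and 1.94 (SE 0.12). Markers of epithelia, where ZO-1 is best known, summed to 0.0633 to 2.91 CPM over 5 genes, with 0 of 2 tested called in any comparison and Krt19 at 0 in the mutants of group 1 and in wildtype and mutants of group 2 (Epcam too in that wildtype), while the low-yield mutants had counts for all 5. The 8 endothelial markers summed to 12.3 to 12.7 CPM in wildtype and 10.5 to 19.1 in mutants of group 1, and to 17.5 to 27.2 in wildtype, 14.9 to 17.3 in mutants and 19.5 to 20.6 in low-yield mutants of group 2, with Emcn at 0 in the mutants of group 1 and in wildtype and mutants of group 2, Stab2 at 0 in the mutants of group 1, and counts for all 8 in the low-yield mutants. Plvap made up the largest part of each group's sum, while the median log2 fold change of those tested was 0.48, 1.62 and 2.58, with 0 of 4, 1 of 5 and 3 of 5 higher (Pecam1 in both comparisons of group 2, Kdr and Tek in low-yield mutants) and Plvap lower in low-yield mutants. The part of such cells in the Tjp1 difference was not tested.

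Homer2, at chr7:81600481-81707527 on the minus strand, encodes a scaffold of calcium signalling that binds glutamate receptors, IP3 receptors and NFAT factors. It was at 6.73, 9.03 and 9.54 CPM in wildtype and 27.1, 21.5 and 23.5 CPM in mutants of group 1. In group 2 its levels were 5.28, 8.41 and 6.75 CPM in wildtype, 22.9, 20.9 and 24.99 in mutants and 23.2, 21.7 and 24.1 in low-yield mutants, so both mutant groups lay in the same range and well above wildtype. On the log2 scale the differences were 1.51 (SE 0.15), 1.75 (SE 0.15) and 1.75 (SE 0.15).

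Promoter sequence was searched for the consensus half-site at which p53 binds DNA, usually as a pair. Binding of p53 was not measured here. RefSeq promoter windows (GRCm38.p6, 250 bases before to 50 after a start) were matched by symbol for 9 of the 10 genes, 13 windows in all, and both strands were searched. The consensus half-site was found in 4 windows, 1 each of Tjp1, Homer2, Nid1 and Mef2c, and in 8.36% of all 32851 windows. Those 4 stretches before the start are shown, 5′ to 3′ on the gene's strand, with the half-site in capitals.
Tjp1: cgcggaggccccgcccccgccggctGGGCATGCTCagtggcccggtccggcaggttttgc
Homer2: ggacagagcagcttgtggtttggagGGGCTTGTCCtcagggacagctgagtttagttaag
Nid1: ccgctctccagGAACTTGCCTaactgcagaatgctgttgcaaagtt
Mef2c: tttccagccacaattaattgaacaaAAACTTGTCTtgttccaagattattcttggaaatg
The Tjp1 stretch is chr7:65371245-65371304 (minus strand) and begins its half-site 35 bases before a start inside the gene as annotated by GENCODE. That of Homer2 is chr7:81693069-81693128 (minus strand), 138 bases before the inner of its 2 starts. The Nid1 half-site lies 239 bases before the start in chr13:13437352-13437397, and that of Mef2c 180 bases before it in chr13:83503829-83503888, both on the plus strand. No window of the other 5 genes with one holds these letters, and a match or its absence says nothing here about binding. The CArG box of SRF was in none of the 13 windows and in 1.63% of all. GGGCGG was in 7 of the 13 windows and in 35.7% of all, CCAAT in 4 (of Mef2c, Nid1 and Rbmx; 37.4% of all), TATAAA in 4 (of Homer2, Mef2c and Rbmx; 13.6%) and AGATAA or TGATAA, the letters GATA factors bind, in 2 (of Tjp1 and Tmsb4x; 18.6%). GC content differed widely among them, from 82.3% at the outer start of Homer2 and 71.7% for Ano1 to 39.7% for Gask1b and 35.7% at one start of Mef2c, around a median of 52.7% over all windows.

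Of the signalling genes, Mef2c (chr13:83504034-83667080, plus strand) encodes a MADS-box transcription factor that class IIa histone deacetylases restrain and that acts in muscle, megakaryocytes and lymphocytes. In group 1 it was at 4.18, 9.55 and 8.50 CPM in wildtype and 14.4, 22.5 and 20.9 CPM in mutants. Replicate 1 was the low library of both groups, and the lowest mutant was 1.51 times the highest wildtype. In group 2 the levels were 3.95, 2.37 and 3.92 CPM in wildtype, 13.9, 13.4 and 14.3 in mutants and 16.1, 20.1 and 12.8 in low-yield mutants. The log2 fold changes were 1.38 (SE 0.31), 2.02 (SE 0.21) and 2.24 (SE 0.21). In group 1 its call was lost without wildtype replicate 2 or 3 or mutant replicate 2 or 3, and with all libraries under no filter on low counts or under the legacy mode of edgeR; in each of these fits 8 of the 10 genes were called.

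Ano1 (chr7:144588549-144751974, minus strand) encodes a chloride channel opened by calcium. It was at 7.37, 10.6 and 11.4 CPM in wildtype and at 28.6, 27.5 and 27.8 CPM in mutants of group 1, the most even mutant group of any of the 10 genes there. In group 2 it was at 13.1, 17.5 and 14.9 CPM in wildtype, 36.7, 39.3 and 42.7 in mutants and 33.6, 30.3 and 28.6 in low-yield mutants. All 3 low-yield libraries lay below all 3 mutant libraries and above wildtype. How many of all genes do so was not counted. Its log2 fold changes were 1.51 (SE 0.14), 1.38 (SE 0.12) and 1.02 (SE 0.12).

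Hecw1 (chr13:14226438-14523228, minus strand), a ubiquitin ligase of the NEDD4 family, was at 1.51, 1.06 and 1.30 CPM in wildtype and 5.93, 4.78 and 5.198 CPM in mutants of group 1. In group 2 wildtype was at 2.02, 0.549 and 2.14 CPM, mutants at 9.88, 8.996 and 10.7 and low-yield mutants at 9.08, 13.6 and 12.9. Wildtype replicate 2, with 19 counts, was the low library, and no groups of wildtype and mutants overlapped. On the log2 scale the differences were 2.04 (SE 0.24), 2.63 (SE 0.30) and 2.89 (SE 0.29). With limma voom in place of edgeR the Hecw1 estimate in the mutants of group 2 was 3.36 (SE 0.46), over 1.5 times the fold of edgeR.

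Gask1b (chr3:79884533-79946280, plus strand; Fam198b in GENCODE release M21) encodes a protein of the Golgi apparatus related to secretory kinases. It had the lowest wildtype levels of the 10, 0.271, 0.442 and 0.394 CPM in group 1 from 14 to 23 counts, against 4.58, 3.57 and 4.45 CPM in mutants. In group 2 wildtype was at 0.0316, 0.289 and 0.356 CPM from 1, 10 and 16 counts, mutants at 2.89, 2.36 and 2.50 and low-yield mutants at 5.72, 3.99 and 1.63. The low-yield libraries thus span the mutant range on both sides, with replicate 3 the low one. The log2 fold changes of 3.50 (SE 0.33), 3.40 (SE 0.66) and 3.89 (SE 0.61) were the highest of the 10 genes in each comparison.

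Of the matrix genes, Nid1 (chr13:13437551-13512269, plus strand) encodes nidogen-1, which links laminin to collagen IV in basement membranes. It was at 2.73, 3.42 and 3.31 CPM in wildtype and 14.6, 12.3 and 12.9 CPM in mutants of group 1. In mouse group 2 the gene was at 3.19, 6.33 and 5.23 CPM in wildtype, 26.0, 21.7 and 19.7 in mutants and 36.1, 36.2 and 16.5 in low-yield mutants. Low-yield replicate 3 was again the low library, below every mutant, as for Gask1b. Its log2 fold changes were 2.07 (SE 0.16), 2.18 (SE 0.35) and 2.57 (SE 0.35), and in the mutants of group 2 its call was lost without wildtype replicate 3. Of 8 stromal markers, whose cells make much of the nidogen of tissues, the summed level was 1.77 to 2.18 CPM in wildtype and 3.93 to 6.34 in mutants of group 1, with Dcn, Col3a1, Pdgfra and Acta2 at 0 in the mutants and Pdgfra in wildtype. In group 2 it was 2.6002 to 3.95 CPM in wildtype, 3.98 to 5.65 in mutants and 4.34 to 7.76 in low-yield mutants, with Lum at 0 in both mutant groups, and edgeR called 1 of the 2 tested markers higher in group 1 (Col1a2 at 1.799, SE 0.32; Pdgfrb at 1.19, SE 0.44, was not called) and neither in group 2. Their part in the Nid1 difference was not tested.

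Emilin2 (chr17:71252172-71311978, minus strand), a glycoprotein of the elastic matrix, was at 34.1, 31.7 and 33.3 CPM in wildtype and 74.8, 74.7 and 83.7 CPM in mutants of group 1. In group 2 wildtype was at 77.3, 46.5 and 48.5 CPM, mutants at 138, 110 and 138 and low-yield mutants at 127, 147 and 108. Wildtype replicate 1 stood nearest to the mutants, and the groups still did not overlap. On the log2 scale the differences were 1.23 (SE 0.08), 1.17 (SE 0.20) and 1.15 (SE 0.20), and the call in the mutants of group 2 was lost without wildtype replicate 3 or mutant replicate 1.

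Rbmx, on the X chromosome at chrX:57383530-57393036 (minus strand), encodes the splicing regulator hnRNP G. It was at 72.5, 59.6 and 62.7 CPM in wildtype and 107, 97.0 and 101 CPM in mutants of group 1. In group 2 it was at 36.5, 33.9 and 32.0 CPM in wildtype, 76.3, 72.1 and 74.0 in mutants and 77.8, 87.7 and 66.6 in low-yield mutants. The wildtype and mutant libraries formed tight, separate ranges in both mouse groups. Its log2 fold changes were 0.65 (SE 0.08), 1.12 (SE 0.10) and 1.18 (SE 0.10). Those in the mutants were the lowest of the 10 genes, in group 2 close to Emilin2 at 1.17 (SE 0.20). In the low-yield comparison Ano1 at 1.02 and Emilin2 at 1.15 lay below Rbmx.

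Tmsb4x, also X-linked (chrX:167207093-167209315, minus strand), encodes thymosin beta-4, which holds actin monomers in reserve and is abundant in white blood cells and platelets. It was at 14.4, 43.8 and 43.1 CPM in wildtype and 37.5, 106 and 82.2 CPM in mutants of group 1, so the groups overlapped: mutant replicate 1 lay below wildtype replicates 2 and 3. In mouse group 2 the gene was at 6.99, 4.54 and 6.55 CPM in wildtype, 16.5, 15.8 and 16.2 in mutants and 21.3, 22.4 and 19.7 in low-yield mutants, in steps without overlap. Its log2 fold changes were 1.15 (SE 0.63), 1.42 (SE 0.16) and 1.81 (SE 0.15). Replicate 1 was the low library of both groups in group 1, and each mutant was above the wildtype of its own number, by 2.602, 2.42 and 1.91 times. The labels do not pair these libraries. Over all genes tested, wildtype replicate 3 deviated more like mutant replicate 2 (r = 0.23) than like mutant replicate 3 (r = 0.15). With the replicate number as a block all the same, the Tmsb4x estimate was 1.18 (SE 0.09) and all 10 genes were called in group 1. Calls over all genes then numbered 2863 in place of 1766.

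In group 1, the low replicate of Tmsb4x and Mef2c was also low in granulocyte and mast cell markers. The summed level of these 9 genes (Mpo, Elane, Prtn3, Ctsg, Prg2, Prg3, Cpa3, Lyz2 and Ngp) was 72.4, 566 and 542 CPM in wildtype and 201, 1095 and 780 CPM in mutants of group 1, low in replicate 1 of both as for both members. In group 2 it was 14.2 to 27.4 CPM in wildtype, 98.3 to 197 in mutants and 139 to 292 in low-yield mutants, with none of the 9 at 0 throughout a group. In the edgeR test 5 of 7 tested markers were higher in the mutants of group 2, 7 of 7 in the low-yield mutants and 0 of 9 in group 1, where all 9 estimates were above 0. Within the groups (deviations of log2 levels from the group mean, 15 libraries), the marker sum correlated with Tmsb4x at r = 0.92 and with Mef2c at r = 0.79. Taken by mouse group these were 0.998 and 0.98 over 6 libraries of group 1 and 0.35 and 0.26 over 9 of group 2, so the pooled values rest on group 1. Other members also ran with or against the marker sum in group 1, at r = -0.95 for Rbmx, -0.87 for Hecw1 and 0.73 for Ano1. The remaining members lay between -0.12 (Emilin2) and 0.44 (Gask1b) there. The lymphoid sum, at most 1.10 CPM with Cd3e at 0 in every group, had r = 0.97 with each of the 2 genes in group 1 and 0.61 with Tmsb4x and 0.63 with Mef2c in group 2. For the megakaryocyte sum the sign differed between the mouse groups, at 0.90 and -0.48 with Tmsb4x and 0.83 and -0.44 with Mef2c, and so it did for the macrophage sum, at 0.97 and -0.45 with Tmsb4x and 0.88 and -0.35 with Mef2c. Against wildtype, edgeR called 0 of 7 megakaryocyte markers higher and 1 lower in group 1 (median log2 fold change 0.24), 1 of 6 higher in the mutants of group 2 (0.27), and 3 of 6 higher and 1 lower in the low-yield mutants (1.76). Itga2b was higher in both comparisons of group 2, while Vwf was lower in group 1 and in the low-yield mutants. The part of such cells in the Tmsb4x and Mef2c differences was not tested.

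**Figure D3:**
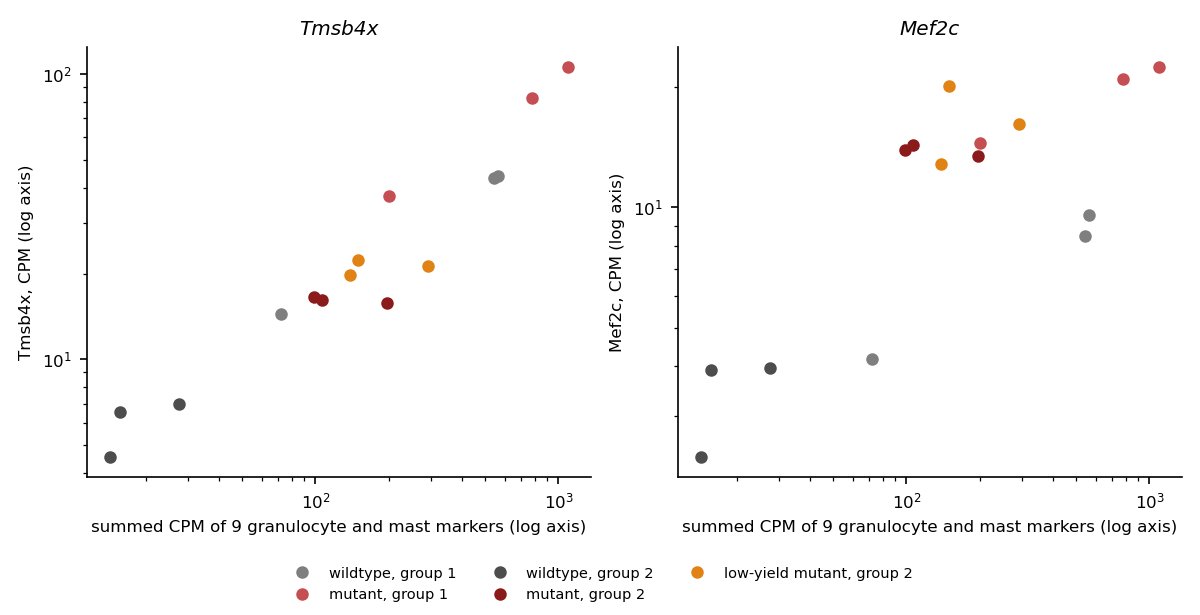
CPM of Tmsb4x and of Mef2c (log axes) against the summed CPM of 9 granulocyte and mast cell markers, 1 dot per library. In group 1, replicate 1 of wildtype and of mutant, at 72.4 and 201 CPM of markers, carry the lowest Tmsb4x of their groups, 14.4 and 37.5 CPM.

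Since Rbmx and Tmsb4x are X-linked, the sex of the embryos behind a library was read from Xist and 4 Y-linked genes. Xist was at 1029 to 1409 CPM with Y genes summing to at most 0.101 CPM in 7 libraries, Y genes summed to 118 to 217 CPM with Xist at most 19.5 CPM in 6, and wildtype replicates 1 and 2 of group 1 held both. Each group of mouse group 2 had libraries of both kinds. Among the libraries with Xist there (wildtype 1 and 3, mutant 1 and 3), Rbmx was at 36.5 and 32.0 CPM in wildtype against 76.3 and 74.0 CPM in mutants, and Tmsb4x at 6.99 and 6.55 CPM against 16.5 and 16.2 CPM. Among those with Y genes (replicate 2 of both), a single library of each genotype, Rbmx was at 33.9 against 72.1 CPM and Tmsb4x at 4.54 against 15.8 CPM. In the low-yield mutants Rbmx was at 77.8 and 87.7 CPM with Xist and 66.6 CPM with Y genes, and Tmsb4x at 21.3 and 22.4 CPM and 19.7 CPM. In group 1 no wildtype library held Xist alone, and among those with Y genes (wildtype 3, mutant 2 and 3) Rbmx was at 62.7 CPM against 97.0 and 101, and Tmsb4x at 43.1 CPM against 106 and 82.2. The part of sex in these differences was not tested. Wildtype replicates 1 and 2 of group 1 had Xist at 525 and 865 CPM and Y genes at 123.4 and 77.4 CPM, and the labels do not say whether they hold embryos of both sexes or a mixture of samples. They are 2 of the 3 wildtype libraries behind every fold change of group 1. Without both, in a fit chosen after seeing the data in which wildtype replicate 3 is assumed to vary like the mutants, edgeR called 196 of 15464 genes and 8 of the 10 members, Mef2c and Tmsb4x being the exceptions. The median log2 fold change of the 10 was then 1.33, all 10 estimates were above 0, and Tjp1 was at 1.43 (SE 0.15).

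Ranked by level per length of exons (RPKM, here from GENCODE exon lengths), the 10 genes covered a wide range. In wildtype of group 1 the order ran from Tmsb4x at 24.6 ± 12.2 (SD, n = 3) over Rbmx at 14.999 ± 1.56 and Emilin2 at 6.0009 ± 0.222 to Hecw1 at 0.0879 ± 0.0154 and Gask1b at 0.0384 ± 0.00921 RPKM. Neighbours whose libraries overlapped there were Tmsb4x and Rbmx, Ano1 (1.57) and Tjp1 (1.38), and Homer2 (0.668), Mef2c (0.471) and Nid1 (0.454). In the mutants Tmsb4x stayed first at 54.9 ± 25.5 RPKM and Tjp1 at 5.22 stood above Ano1 at 4.48 without overlap. Gask1b at 0.437 and Hecw1 at 0.361 RPKM overlapped as the last pair.
In group 2 the order in wildtype was Emilin2 at 10.4 ± 3.13, Rbmx at 7.89 ± 0.520, Tmsb4x at 4.39 ± 0.954, Ano1 at 2.43 ± 0.348, Tjp1 at 1.64 ± 0.116, Nid1 at 0.708, Homer2 at 0.540, Mef2c at 0.217, Hecw1 at 0.107 and Gask1b at 0.0235 RPKM, with overlap only between Nid1 and Homer2. In the mutants Tjp1 at 7.06 and Ano1 at 6.34 RPKM changed places and overlapped, and the other ranks were as in wildtype. Among low-yield mutants the ranks were those of the mutants, with Emilin2 at 23.1 ± 3.49, Rbmx at 17.9 ± 2.44 and Tmsb4x at 15.4 ± 0.973 RPKM overlapping in turn, as did Ano1 with Nid1 and Mef2c with Hecw1. Gask1b stood at the 1.27th percentile of 15005 ranked genes in wildtype of group 2 and Emilin2 at the 69.4th, so the genes share no level.

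Low-yield mutants and mutants of group 2 were compared next. This contrast is the difference of 2 on which the genes were chosen, in part for evenness, so its estimates and p-values are not free of that choice and are read as a description. None of the 10 genes was called by edgeR, nor was any of the 15024 genes tested (0%). At an unadjusted p under 0.05, 480 genes differed over the whole table and 2 among the 10, and other tools called 6 genes (DESeq2) or 4 (limma voom), none of them among the 10. Without low-yield replicate 3, edgeR called 22 genes, again none of the 10. Ano1 was lower in the low-yield mutants with a log2 difference of -0.36 (SE 0.12, 95% interval -0.61 to -0.12), unadjusted p 0.00703 and edgeR adjusted p 0.9997. All 3 of its low-yield libraries lay below all 3 mutants, and the share of all genes lying so was not counted. Tmsb4x was at 0.38 (SE 0.14, interval 0.08 to 0.68), unadjusted p 0.0156 and edgeR adjusted p 0.9997. Its 3 low-yield libraries lay above all 3 mutants, as for 4.07% of genes tested. Megakaryocyte markers, which like Tmsb4x run high in platelets, summed to 49.5 to 50.8 CPM over 7 genes in the low-yield libraries and to 33.2 to 39.8 in the mutants and 35.2 to 39.6 in wildtype, with 0 of 6 called between low-yield mutants and mutants, and their part was not tested. Over the alternatives, the edgeR, DESeq2 and voom adjusted p ran from 0.201 to 1 for Ano1 and from 0.249 to 1 for Tmsb4x.

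For the other 8 genes the estimate and its 95% interval set the limits of what this comparison of 3 with 3 libraries can say. Tjp1 was at -0.18 (interval -0.42 to 0.06), Rbmx at 0.06 (-0.15 to 0.27) and Emilin2 at -0.02 (-0.46 to 0.42). Homer2 was at -0.00 with an interval from -0.29 to 0.29. These intervals leave out a log2 difference of 0.5 in either direction. Those of Mef2c at 0.22 (-0.16 to 0.61), Hecw1 at 0.26 (-0.22 to 0.75), Nid1 at 0.39 (-0.29 to 1.07) and Gask1b at 0.49 (-0.33 to 1.32) do not.

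Whether the difference between mutant and wildtype itself differed between the mouse groups was tested as the interaction of genotype and mouse group, in which the kind of RNA and the mouse group cannot be told apart. The interaction is the difference of the 2 contrasts on which the genes were chosen, so its estimates and p-values are not free of that choice and are read as a description. No member was called, against 0.0188% of the 15954 genes tested (3 genes, each lower in group 2). At an unadjusted p under 0.05 there were 342 genes over the table and 1 member, Rbmx, whose increase was greater in group 2 by 0.49 on the log2 scale (SE 0.13, 95% interval 0.21 to 0.77, unadjusted p 0.00168, edgeR adjusted p 1). Over the alternatives its adjusted p lay between 0.316 and 1. The other 9 estimates ran from -0.12 for Ano1 to 0.66 for Mef2c, whose interval was -0.13 to 1.45. Intervals were widest for Gask1b (-1.77 to 1.61) and Tmsb4x (-1.42 to 1.99), so a 2-fold difference between the mouse groups lies within both. In simulated tables, 11% of genes given an interaction of 1 on the log2 scale were recovered, and 95% of those given 2. Only genes above a minimum mean count were changed there, which Gask1b did not reach. Every gene was given the same spread, so these shares need not hold for the members.

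**Figure D4:**
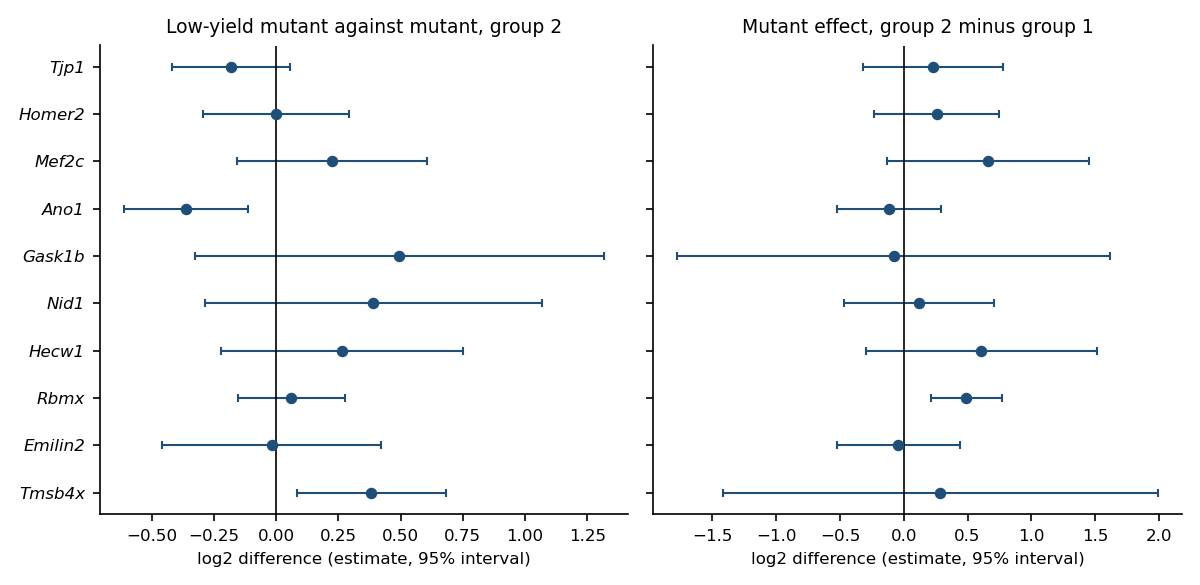
Log2 difference with its 95% interval (edgeR) for each gene between low-yield mutants and mutants of group 2 (left) and between the mutant effects of group 2 and group 1 (right). Intervals of Ano1 and Tmsb4x on the left and of Rbmx on the right lie off 0, and none of the 20 estimates passed the adjusted threshold.

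Library by library, the 10 genes did not move as 1 block. Within groups, over deviations from the group mean in 15 libraries, the 45 pairs of genes had a median Pearson r of 0.14, from -0.55 (Ano1 and Hecw1) to 0.90. The matrix gene Nid1 and the Golgi gene Gask1b stood together at r = 0.90, with 0.93 in group 1 and 0.90 in group 2 taken alone. Mef2c and Tmsb4x likewise had r = 0.90, with 0.97 and 0.91, and Homer2 and Ano1 r = 0.82, with 0.89 and 0.78. Rbmx and Emilin2 followed at 0.63, with 0.37 and 0.74. All such values share libraries and scaling, n is 6 and 9 libraries within the mouse groups, and they describe these libraries only. Other pairs ran in opposite directions in the mouse groups: Hecw1 and Tmsb4x had r = -0.87 in group 1 and 0.90 in group 2, Mef2c and Hecw1 -0.90 and 0.77, and Mef2c and Rbmx -0.98 and 0.58. The low ends of Gask1b and Nid1 are wildtype replicate 1 of group 2, where Gask1b had 1 count, and low-yield replicate 3. Over all 15 libraries the epithelial marker sum, at most 2.91 CPM, had r = 0.82 with Gask1b (0.034 in group 1 and 0.90 in group 2), the stromal sum r = 0.79 with Emilin2 (0.84 and 0.85) and the erythroid sum r = -0.73 with Rbmx (-0.55 and -0.84). These were picked as strong values among all pairs of the 10 genes with 9 marker lists. Emilin2 also had r = 0.04 and 0.90 with the endothelial sum, -0.01 and -0.85 with the erythroid sum and -0.13 and -0.85 with the macrophage sum.

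**Figure D5:**
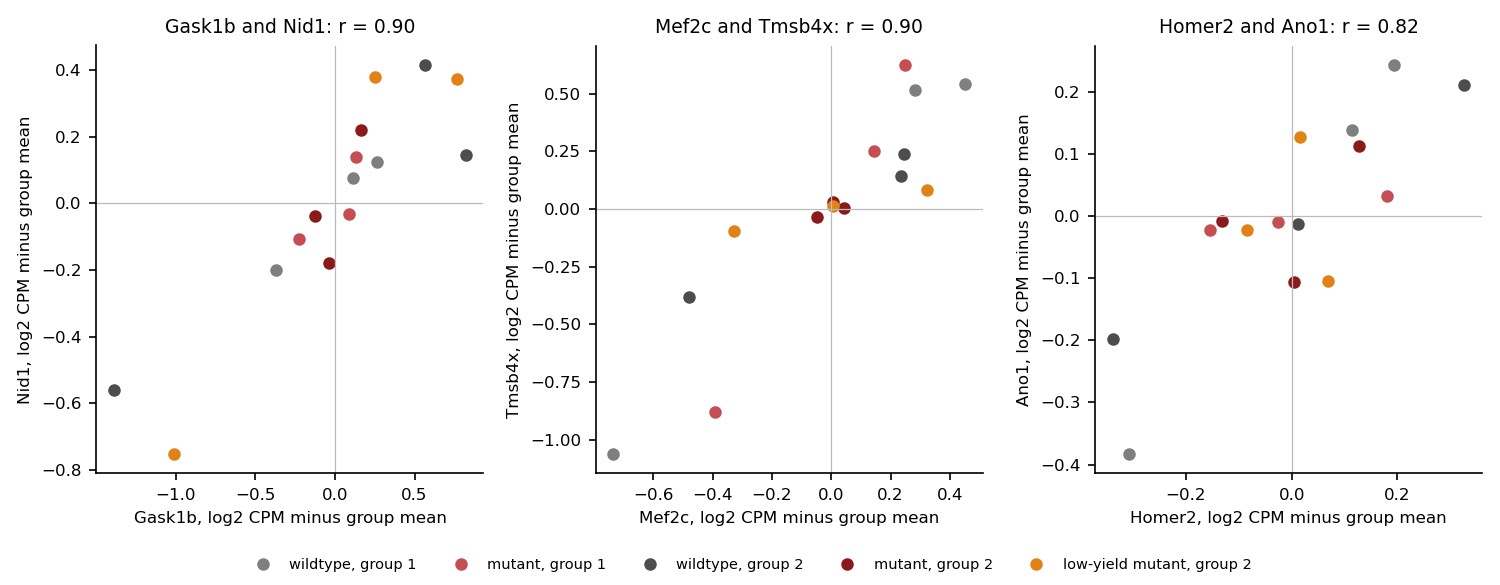
Deviation of each library from the mean of its group (log2 CPM) for Gask1b against Nid1, Mef2c against Tmsb4x and Homer2 against Ano1, coloured by group, 15 libraries each. Points of the first and second pair follow a line (r = 0.90 each) with its ends set by a few libraries, and those of the third follow it less closely (r = 0.82).

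Genes whose levels ran most alike to each member over all 15 libraries were sought by Pearson's r of log2 CPM centred on wildtype, among 11450 genes. This r takes in the difference between mutants and wildtype on which the genes were chosen: over all genes compared its median lay between 0.02 and 0.04 for each member, but over the 309 or 310 others called higher in both mouse groups between 0.79 and 0.90, with a 95th percentile of 0.90 to 0.97. The neighbours are therefore named as a description only. Tjp1 was nearest to Psrc1 (r = 0.98), Cdkn1a (0.98), the p53 target that stops the cell cycle, and Ctr9 (0.98), and Ano1 to Tmem98 (0.99), Prpf8 (0.98) and Cdkn1a (0.98). Gask1b and Nid1 were nearest to each other (0.99), then to Idua (0.98 for both). Homer2 was nearest to Utp20 (0.99), Idua (0.98) and Tjp1 (0.96). Mef2c was nearest to Pecam1 (0.97), an adhesion receptor of endothelium, platelets and leukocytes, Met (0.97) and Actr3 (0.97), and Tmsb4x to Arhgdib, Fli1 and Hdc (0.98 each), the last of which makes histamine in mast cells and basophils. Emilin2 was nearest to Pcdh7 (0.99), Copa and Adgrl2 (0.98 each), Rbmx to Poglut2, Pwwp3b and Rinl (0.98, 0.97 and 0.97), and Hecw1 to Gfpt2 (0.96), Poglut2 (0.95) and Agps (0.95). By Spearman's rho, 7 of these 30 neighbours stayed among the nearest 3, Nid1 and Gask1b and all 3 of Rbmx among them.

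Genes known to work with each member were listed from general knowledge, and most were not called by edgeR, whose counts are given unless another tool is named. The counts stand beside the shares of all genes called higher (5.79%, 3.32% and 6.68%) and lower (6.78%, 2.95% and 5.86%), and nothing is called particular to a list. Of 19 tested partners of Tjp1 at junctions, 1 was higher in the mutants of each mouse group, none was lower, and the median log2 fold change was 0.19 and 0.06. That gene was Gja1, the gap junction protein connexin 43, at 0.95 (SE 0.15, edgeR adjusted p = 0.00217) in group 1 and 1.08 (SE 0.24, adjusted p = 0.0205) in group 2. In the low-yield mutants 2 were higher, with Gja1 at 1.27 (SE 0.24), but 1 with DESeq2, with voom or without any 1 library other than low-yield replicate 3. The count of the group 2 mutants was 0 without wildtype replicate 2 or 3 or mutant replicate 1. Of the partners of Homer2, 5 of 16 were higher in group 1, 1 of 17 in group 2 and 4 of 17 in the low-yield mutants, with none lower. In group 1 the count higher was 2 without wildtype replicate 1 or 3 or mutant replicate 2 and 3 without wildtype replicate 2 or mutant replicate 3. For the mutants of group 2 it was 4 with DESeq2, 3 with voom or without wildtype replicate 1 and 0 without any other 1 library, and in the low-yield mutants it was 2 without wildtype replicate 2 or 3 or low-yield replicate 1. Without mutant replicate 2, 1 was lower in each mouse group. Itpr3, an IP3 receptor, was at 0.90 in both mouse groups (SE 0.24 and 0.22), and Nfatc2 at 1.32 (SE 0.35) in group 1 and 0.99 (SE 0.29) in the low-yield mutants.

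Among the 14 tested relatives and regulators of Mef2c in group 1, 1 was higher and 2 lower, in group 2 1 of 12 was higher and in the low-yield mutants 1 higher and 1 lower. The 2 lower calls of group 1 became 1 without wildtype replicate 1 and 0 without wildtype replicate 2 or 3 or mutant replicate 1 or 3. The call of the group 2 mutants was lost without wildtype replicate 2 or 3 or mutant replicate 1, a second was added there and in the low-yield mutants without wildtype replicate 1, and 1 gene was lower in the group 2 mutants with DESeq2 and 2 with voom. Hdac7, a repressor of MEF2 factors, was higher at 0.38 (SE 0.06, edgeR adjusted p = 0.00244), 0.43 (SE 0.10, adjusted p = 0.0227) and 0.49 (SE 0.10). Hdac5, of the same class, was lower at -0.80 (SE 0.20) in group 1 and -1.04 (SE 0.20) in the low-yield mutants. Of the anoctamins, 2 of 4, 1 of 3 and 1 of 3 were higher (2 in the low-yield mutants without wildtype replicate 1) and none lower, but 1 lower in group 1 with DESeq2, with voom or without mutant replicate 2. Among those higher was Ano6, which scrambles membrane lipids, at 0.88 (SE 0.17), 0.89 (SE 0.13) and 0.98 (SE 0.13). Fjx1, a secreted relative of the Golgi kinases near Gask1b, was the 1 gene of 7 or 8 called in its list, at 2.11 (SE 0.17, edgeR adjusted p = 3.22e-05), 2.13 (SE 0.35, adjusted p = 0.00836) and 2.28 (SE 0.35).

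Basement membrane genes, the partners of Nid1, moved both ways: 4 higher and 2 lower of 13 in group 1, 5 and 2 of 18 in group 2 and 5 and 3 of 18 in the low-yield mutants. These counts moved with single libraries. In group 1 those higher were 2 without wildtype replicate 1 or mutant replicate 2 or 3 and 1 without wildtype replicate 2, and those lower 0 without wildtype replicate 1 or mutant replicate 3 and 1 without wildtype replicate 2 or 3 or mutant replicate 1. For the mutants of group 2 those higher were 0 without wildtype replicate 2, 1 without wildtype or mutant replicate 3 and 2 without mutant replicate 1 or 2, and those lower 1 without any 1 wildtype library and 0 without any 1 mutant library. In the low-yield mutants those higher were 3 without wildtype replicate 2 or 3, 1 without low-yield replicate 1 and 2 without low-yield replicate 2, and those lower 0 without wildtype replicate 2 or low-yield replicate 1 or 2, 1 without wildtype replicate 3 and 2 without low-yield replicate 3. Lamc1, the gamma chain of laminin that nidogen binds, was higher at 0.63 (SE 0.08), 0.47 (SE 0.12) and 0.47 (SE 0.12). Agrn was at 0.36 (SE 0.08), 0.50 (SE 0.11) and 0.45 (SE 0.11), Col18a1 at 1.00 (SE 0.26), 0.80 (SE 0.23) and 0.96 (SE 0.22), and Fbln1, which binds nidogen, at 1.30 (SE 0.37), 1.40 (SE 0.30) and 1.29 (SE 0.29). Col4a2, a chain of the collagen IV at the other end of nidogen, was lower at -1.02 (SE 0.22), -0.75 (SE 0.20) and -0.81 (SE 0.20), and Lama2 was lower in the low-yield mutants at -1.52 (SE 0.43). In the list drawn up for Emilin2, of elastic matrix genes and receptors of its protein family, 1 of 8, 1 of 7 and 2 of 7 were higher. The 1 gene in both mutant groups was no matrix gene but Tnfrsf10b, a death receptor and p53 target, at 0.69 (SE 0.16), 0.83 (SE 0.18) and 0.69 (SE 0.18). By edgeR with all libraries Ltbp1 was the 1 gene lower, in the low-yield mutants at -0.85 (SE 0.21), a call lost without wildtype replicate 2 or low-yield replicate 1 or 2. With voom 2 were lower there and 1 in the group 2 mutants, and without mutant replicate 2, 1 was lower in each mouse group. The call higher was lost in group 1 without wildtype replicate 1 or 2 or mutant replicate 3 and in the group 2 mutants without wildtype or mutant replicate 3, and the 2 of the low-yield mutants became 1 with voom or without any 1 library but low-yield replicate 3.

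Of 10 NEDD4-family ligases and adaptors tested beside Hecw1, edgeR with all libraries called none higher in any of these comparisons and 3 lower in group 1, with Ndfip2 at -0.36 (SE 0.09). In group 1, 1 was higher with DESeq2, with voom or without mutant replicate 1, and the count lower was 1 without wildtype replicate 1 or 2 or mutant replicate 2 or 3 and 2 without wildtype replicate 3 or mutant replicate 1. In the mutants of group 2 edgeR called none with all libraries, nor did DESeq2 or voom. In the low-yield mutants edgeR called none with all libraries and 1 higher without wildtype replicate 1, and voom called 1 higher and 1 lower. Of 26 nuclear RNA-binding proteins tested beside Rbmx, 4 were higher and 1 lower in group 1, 2 and 1 in group 2, and 2 and 2 in the low-yield mutants. In group 1 the count higher was 8 with DESeq2 or voom, 1 without wildtype replicate 3 or mutant replicate 3, 2 without wildtype replicate 2 or mutant replicate 1 and 11 without mutant replicate 2. For group 2 mutants it was 0 without wildtype replicate 2 or mutant replicate 1 and 1 without wildtype or mutant replicate 3, and 5 with voom. In the low-yield mutants it was 0 without low-yield replicate 2, 1 without wildtype replicate 2, 5 without low-yield replicate 3 and 7 with voom, and the count lower was 1 without any 1 library. In group 1 the count lower was 2 without wildtype replicate 3. Hnrnph1 was higher at 0.31 (SE 0.07), 0.40 (SE 0.11) and 0.42 (SE 0.11) and Hnrnph3 at 0.53 (SE 0.07), 0.59 (SE 0.13) and 0.56 (SE 0.13), while the close relative Hnrnph2 was lower at -0.47 (SE 0.06, edgeR adjusted p = 0.00063), -0.53 (SE 0.09, adjusted p = 0.00265) and -0.50 (SE 0.09). Of the actin monomer and focal adhesion genes with Tmsb4x, 5 of 20 were higher and 1 lower in group 1, 3 and 0 of 21 in group 2 and 5 and 1 of 21 in the low-yield mutants. In group 1 those higher were 3 without wildtype replicate 1 or mutant replicate 3 and 2 without wildtype replicate 2, and those lower 2 with DESeq2 or without wildtype replicate 3. For the mutants of group 2 those higher were 1 without wildtype replicate 2 or 3, 0 without mutant replicate 1 or 3 and 2 without mutant replicate 2, and 1 was lower with DESeq2, with voom or without wildtype replicate 1. In the low-yield mutants those higher were 3 without wildtype replicate 3 or low-yield replicate 1. Actg1 was at 0.61 (SE 0.14), 0.50 (SE 0.12) and 0.56 (SE 0.12) and Cap1 at 0.40 (SE 0.07), 0.38 (SE 0.08) and 0.46 (SE 0.08). Dstn was at 0.33 (SE 0.09) and 0.35 (SE 0.09) in the mutants, and Cap2 at 0.76 (SE 0.15) in group 1 and 0.96 (SE 0.17) in the low-yield mutants.

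These named partners carried 59 calls over the 3 comparisons, of which 21 were kept whichever of the compared libraries was left out, those of Ano6, Fjx1 and Hnrnph2 in all 3. For the other 38 calls the edgeR adjusted p was at most 0.182. In group 1, wildtype replicates 1 to 3 left out ended 9, 10 and 5 of 21 calls and mutant replicates 1 to 3 ended 2, 7 and 9. In group 2, leaving out wildtype replicates 1 to 3 ended 3, 12 and 10 of 17 calls and mutant replicates 1 to 3 ended 11, 6 and 10. In the low-yield comparison, wildtype replicates 1 to 3 ended 1, 8 and 6 of 21 calls, and low-yield replicates 1 and 2 ended 10 and 9 and replicate 3 none. Without both wildtype replicates 1 and 2 of group 1, edgeR called 1 gene higher there in each of the lists of Tjp1, Gask1b and Rbmx, and no other gene of these lists in either direction.

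The 10 genes lie on 5 chromosomes, 3 on chromosome 7, 3 on 13, 2 on X and 1 each on 3 and 17, and none on chromosome 5 with Rpl5. Antisense genes share exon bases with Homer2 (Gm44570), Gask1b (Gm36569), Nid1 (Gm48682) and Hecw1 (Gm30893). Because the strand setting of the counting is not given in the sources used here, reads of these pairs cannot be told apart. Nid1 also has a pseudogene, Gm2399, 99.6% identical over its length to part of Nid1. Summing near-identical copies with Nid1 and Gask1b left the members' estimates in the same direction. The number of calls over all genes was also the same, 1766 in group 1. The Nid1 copy matches 6.02% of its coding sequence and the Gask1b copies none of it, so this sum checks little.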

How the data were processed

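The deposited values are expected counts per gene, estimated by the authors from 151 bp paired-end reads. Per the submitters' processing notes, tools named are cutadapt 2.3, FastQC 0.11.8, STAR 2.7.8a, RSEM 1.3.3 and MultiQC 1.7 with build GRCm38; the annotation release and strand setting are not given in the sources used here. All values were whole as deposited, so rounding changed nothing. Reporter rows, 4 in group 1 with 4 counts in all and 5 in group 2 with 1, were left out.

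The test was that of edgeR 4.0.16, run under R 4.3.3 (filterByExpr, TMM, robust quasi-likelihood F test, two-sided, Benjamini-Hochberg over all genes tested, threshold 0.05). Group 2 was 1 fit over 9 libraries, and the interaction was a fit over 12. DESeq2 1.42.0 and voom with quality weights of limma 3.58.1 were alternatives. Of the gene IDs, 99.5% were in GENCODE M21, which gave positions and lengths. On simulated data, 63% (group 1) and 81% (group 2) of genes changed by 1 on the log2 scale were recovered. Only genes above a minimum mean count were changed in the simulations, and every gene was given the same spread.

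The members and the gene lists were chosen with earlier results of these data known. List genes are named when called in both mouse groups, or as the largest change of their list in a comparison, at a mean CPM of at least 1. Same-numbered wildtype and mutant libraries of group 1 deviated together (r = 0.44, 0.19 and 0.15, each over 0.1), so the block is given there. Wildtype replicate 3 was closer to mutant replicate 2 (r = 0.23), so a pairing by number is not settled. In group 2 same-numbered libraries did not all deviate together.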

Additional observations from a re-analysis of the deposited data

How the results depend on the processing

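Of 810 recomputed estimates of the 10 genes, 786 kept their direction, among them all 450 in the comparisons with wildtype, and 1 of these, Tjp1 in group 1, moved by at least 1 SD, to 1.43 without both wildtype libraries that hold Xist and Y-linked reads. In the other 2 comparisons none passed the threshold under any alternative run, and 24 turned. With all libraries, those for Homer2 between low-yield mutants and mutants were 0.000856 with DESeq2, 0.000319 with no filter, 0.00345 with a mean CPM of at least 1, 0.000732 with the replicate block and 0.00229 with the legacy mode of edgeR, which was chosen after seeing the data. For the interaction they were -0.042 for Nid1 and 0.15 for Emilin2 with voom, and 0.052 for Ano1 without those 2 wildtype libraries. Hecw1, without turning, was at 1.30 with voom against 0.61. The causes were not tested.

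With 1 library left out, the log2 difference between low-yield mutants and mutants lay from -0.061 to 0.070 for Homer2, -0.036 to 0.16 for Rbmx and -0.13 to 0.085 for Emilin2. For the interaction it lay from -0.10 to 0.40 for Tjp1, -0.23 to 0.0024 for Ano1, -0.53 to 0.43 for Gask1b, -0.12 to 0.28 for Nid1, -0.21 to 0.19 for Emilin2 and -0.064 to 0.61 for Tmsb4x.

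Calls over all genes numbered 1453 with DESeq2 and 2000 with voom for mutants of group 2, against 942, and 3399 with voom for low-yield mutants, against 1884. Between low-yield mutants and mutants they were 6 with DESeq2 and 4 with voom, against 0, and for the interaction 12 with DESeq2, against 3. Pairing by the replicate block gave 2863 calls in group 1, against 1766, with 1763 shared, and 5 for the interaction. In group 2 same-numbered libraries did not all deviate together, and the block gave 1309 calls for mutants, 2331 for low-yield mutants and 0 between them. Without wildtype replicates 1 and 2 of group 1, also chosen after seeing the data, there were 196 calls in group 1 and 1 for the interaction, with fewer libraries fitted. Leaving out 1 library gave 753 to 1729 calls in group 1, 425 to 1323 in group 2, 900 to 2395 for low-yield mutants, 0 to 22 between low-yield mutants and mutants and 2 to 3 for the interaction; fewer libraries were fitted there.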

Other observations

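The coefficient of variation of CPM over 3 libraries was lower in mutants than in wildtype for 9 of the 10 genes in group 1, beside 43.2% of all genes compared and 46.1% of those whose mutant libraries all stood above wildtype. In group 2 it was lower for 9 in mutants, beside 54.7% and 62.8%, and for 7 in low-yield mutants, beside 62.0% and 63.7%, a share near that of all genes. Evenness was one reason for picking these genes, so nothing is read from the counts.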
